A study of Mus musculus with 34 samples.

Results

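The SR splicing factors described here are the 10 genes *Srsf1* to *Srsf7* and *Srsf9* to *Srsf11*, taken by gene symbol from the mRNA-seq table of the study. They are 10 of 22040 listed genes and 10 of the 12305 genes that were tested because their FPKM averaged 0.5 or more over the libraries, so no member was lost to the filter. FPKM is the number of fragments per kilobase of exon, divided by a size the authors set for each library. The table holds limb buds of mouse embryos at E11.5 in 3 wild-type (WT) and 3 conditional knockout (CKO) libraries. The paper calls them biological replicates. CKO embryos were *Prrx1-Cre*; *Hnrnpk* fl/fl, in which Cre removes exons 4 to 7 of *Hnrnpk*, the gene of a nuclear RNA-binding protein that also acts in splicing and transcription. *Prrx1-Cre* acts in the limb bud mesenchyme and not in the apical ectodermal ridge, so ectoderm, blood, vessels and muscle precursors within the buds keep the gene. Buds were profiled whole, and fewer cells of a type cannot be told apart from less RNA per cell.

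SR proteins carry RNA recognition motifs and a tail rich in arginine-serine repeats. They bind exonic enhancer sequences, help the spliceosome to define exons, and often act against hnRNP proteins bound nearby, so the balance between both families sets the choice of many alternative exons. Most SR genes limit their own protein by splicing in a poison exon or keeping an intron, which sends the transcript to nonsense-mediated decay. *Srsf1*, *Srsf2* and *Srsf3* are needed for survival of the early mouse embryo.

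The 10 genes are spread over several chromosomes (GRCm38, GENCODE vM21), with *Srsf1* and *Srsf2* on chromosome 11, *Srsf3* and *Srsf7* on chromosome 17, and *Srsf4* and *Srsf10* on chromosome 4. The 250 bases in front of their starts were taken from RefSeq (GRCm38.p6) to show what kind of promoter drives them. Windows are printed for *Srsf3*, *Srsf7* and *Srsf1*, where they lie outside the GENCODE gene. *Srsf3* and *Srsf7* were the members highest in CKO replicate 2 and lowest in CKO replicate 1. *Srsf1* was the member whose groups did not overlap. Capitals mark GGGCGG (the GC box) or CCAAT (the CCAAT box) on either strand, so CCGCCC and ATTGG are matches on the reverse strand.
*Srsf3*, chr17:29032410-29032627, plus strand: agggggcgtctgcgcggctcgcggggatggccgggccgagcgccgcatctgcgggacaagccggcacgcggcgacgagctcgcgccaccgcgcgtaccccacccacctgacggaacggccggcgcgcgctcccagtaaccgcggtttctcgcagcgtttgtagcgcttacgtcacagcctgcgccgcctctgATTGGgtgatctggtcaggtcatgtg
*Srsf7*, chr17:80207308-80207555, minus strand: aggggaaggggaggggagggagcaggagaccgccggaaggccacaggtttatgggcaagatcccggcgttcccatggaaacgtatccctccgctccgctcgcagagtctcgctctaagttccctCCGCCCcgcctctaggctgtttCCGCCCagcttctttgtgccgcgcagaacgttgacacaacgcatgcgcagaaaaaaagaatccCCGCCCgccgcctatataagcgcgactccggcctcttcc
*Srsf1*, chr11:88047123-88047372, plus strand: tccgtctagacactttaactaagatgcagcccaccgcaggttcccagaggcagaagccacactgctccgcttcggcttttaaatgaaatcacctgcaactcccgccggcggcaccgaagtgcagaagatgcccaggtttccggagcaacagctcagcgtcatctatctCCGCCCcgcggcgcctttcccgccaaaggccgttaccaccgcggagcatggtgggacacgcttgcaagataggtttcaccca
The *Srsf7* window held 3 GC boxes and the *Srsf1* window 1. The *Srsf3* window held none, with 1 CCAAT box near the start. A GC box was found in 12 of the 13 full windows of the members, against 32.7% of 32851 windows in the table. By gene, 9 of the 10 members held one, all but *Srsf3*. A CCAAT box was found in 3 of the 13 windows (*Srsf2*, *Srsf3* and *Srsf10*), against 33.8% of all windows. The windows in the table were not limited to expressed genes. The median GC content was 68.4% over the 13 windows of the members and 52.4% over all windows. These matches describe letters in the windows and not bound sites.

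All 10 members were expressed far above most genes of the limb bud. Each had a mean FPKM above that of 90.1% to 98.7% of the tested genes. *Srsf7*, a factor with a zinc knuckle that also hands mRNA to the export receptor, stood highest with a mean of 194 FPKM over the 6 libraries (164 to 245). *Srsf2*, a nuclear speckle protein, followed with 175 FPKM (159 to 205). *Srsf3*, the smallest of the family and another export adaptor, and *Srsf1*, the founding member and a binder of exonic enhancers, both had a mean of 147 FPKM. *Srsf6* (111 FPKM) and *Srsf5* (105 FPKM), close relatives of *Srsf4*, formed the middle of the order. *Srsf10*, which turns into a splicing repressor when it loses its phosphates, had 60.8 FPKM, *Srsf9*, a close relative of *Srsf1*, 48.4, *Srsf4* 37.7 and *Srsf11* 36.4. The ranges over libraries separated neighbours in this order at 3 steps only, *Srsf1* above *Srsf6*, *Srsf5* above *Srsf10* and *Srsf10* above *Srsf9*. *Srsf3* and *Srsf1* did not differ beyond their spread, with *Srsf3* the higher of them in 3 of 6 libraries.

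**Figure D1:**
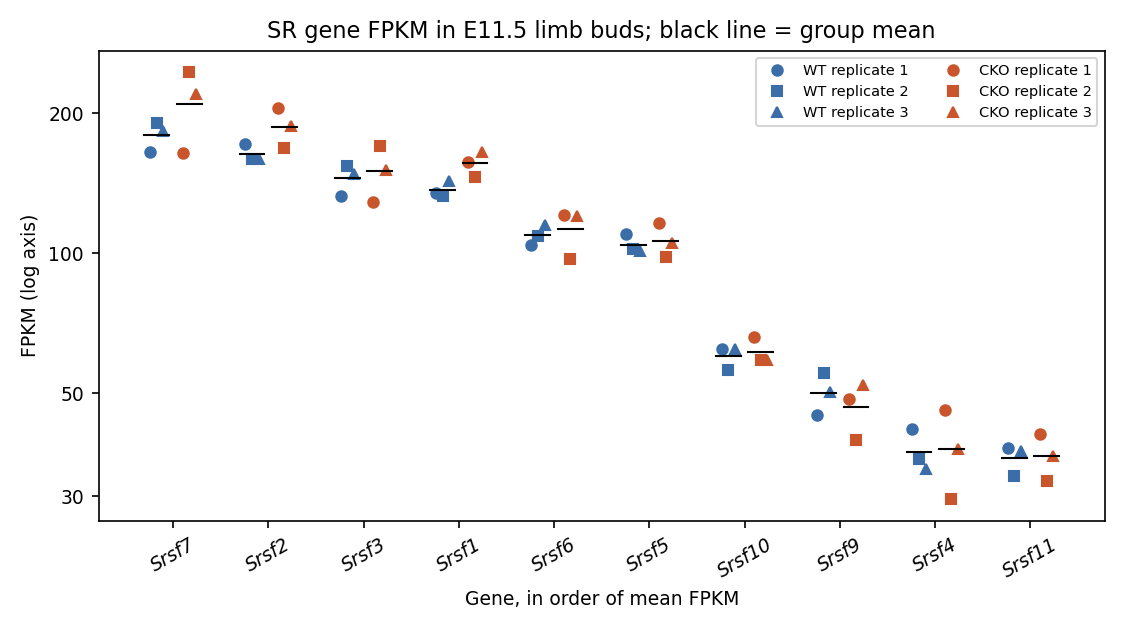
FPKM on a log axis for the 10 SR genes in order of their mean, with blue points for the 3 WT and orange points for the 3 CKO libraries, a symbol for each replicate number, and a black line at each group mean. The genes run from 194 FPKM for *Srsf7* to 36.4 FPKM for *Srsf11*, and the groups overlap for every gene but *Srsf1*.

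The order of levels depends on what counts as the length of a gene. In GENCODE, 9 of the 10 members have a transcript marked for nonsense-mediated decay (90%, against 28.1% of the tested genes) and 8 have a retained-intron transcript (80%, against 58.2%), and *Srsf10* has neither. Exon sequence that lies outside coding transcripts makes up 66.9% of the merged exon length of *Srsf3*, 60.6% of *Srsf11* and 58.5% of *Srsf5*, but 2.66% of *Srsf1*. The deposited FPKM fit division by the full merged length for most genes. For *Srsf3* and *Srsf7* this length did not give whole reads in all libraries, so their values by coding length are less certain. Divided by the exon length of coding transcripts alone, *Srsf3* would come first at 444 FPKM (388 to 512), ahead of *Srsf7* (268), *Srsf2* (258), *Srsf5* (254) and *Srsf1* (151). These are upper values, since reads on the other exons still count. A gene-level FPKM sums the productive, decay and intron-retaining forms, and a shift between them that leaves the sum as it was would not be seen.

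Loss of *Hnrnpk* in the mesenchyme came with no SR gene past the test. *Hnrnpk* itself had 193, 195 and 185 FPKM in WT replicates 1, 2 and 3 and 127, 142 and 135 FPKM in the CKO libraries. All CKO libraries lay below all WT libraries, with a log2 fold change of -0.50 (SE 0.13, adjusted *p* = 0.334 by limma), or 0.0575 with the replicate number as a block. It passed the adjusted threshold in 2 of 18 alternatives, voom with the block (adjusted *p* = 0.0237) and limma on replicates 2 and 3 alone (0.0374). Those fits called 5.11% and 15.1% of all tested genes. The FPKM of *Hnrnpk* includes the exons that Cre leaves in place and the cells that Cre does not reach. Of the 10 members, 0 passed an adjusted *p* of 0.05 in limma, 0 an unadjusted *p* of 0.05, and 0 a change over 2-fold with an unadjusted *p* of 0.05. Over all tested genes limma called 0.065% at the adjusted threshold (8 genes), 8.31% at the unadjusted one and 0.666% with the 2-fold change. Voom, which models read counts, on reads recovered from the FPKM called 0 members at either threshold, against 0.0813% and 8.48% of all genes. The median log2 fold change was 0.03 over the members and 0.00 over all tested genes. The member values ran from -0.11 to 0.21, and 8 of 10 were above 0 (50.9% over all tested genes). The 95% intervals of the 10 members together spanned folds of 0.732 to 1.55, from a narrowest of 0.841 to 1.23 (*Srsf10*), and each included no change.

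**Figure D2:**
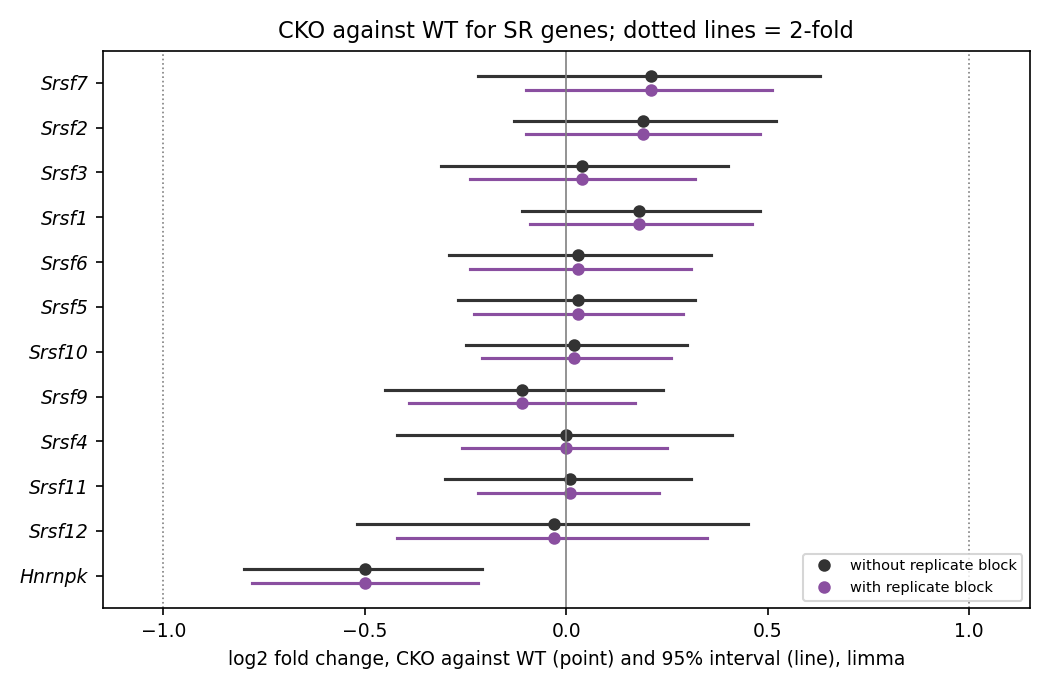
Log2 fold change of CKO against WT (points) with 95% intervals (lines) from limma for the 10 SR genes, *Srsf12* and *Hnrnpk*, without the replicate block in black and with it in purple. Every interval of an SR gene includes 0 and lies within a 2-fold change in both fits, and the interval of *Hnrnpk* lies below 0.

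The highest differences belonged to *Srsf1*, *Srsf2* and *Srsf7*. *Srsf1* had 135, 133 and 143 FPKM in WT replicates 1, 2 and 3, and 157, 146 and 165 FPKM in the CKO replicates. The lowest CKO library lay just above the highest WT library, and *Srsf1* was the only member with groups that did not overlap, where 5.63% of all tested genes were higher in CKO without overlap. The means were 137 ± 5.35 and 156 ± 9.30 FPKM (SD, n = 3), with a log2 fold change of 0.18 (95% interval -0.11 to 0.48, adjusted *p* = 0.776, limma). An exact two-sided permutation test gave *p* = 0.1, which is the smallest value that 3 against 3 libraries allow. Every gene without overlap gets this value, so the test adds nothing to the lack of overlap. The gap closed when libraries were scaled without the globin genes (log2 fold change 0.08) or brought to the same quantiles (0.09), where 0 members were free of overlap.

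*Srsf2* had 172, 159 and 159 FPKM in the WT libraries and 205, 168 and 188 in the CKO libraries. CKO replicate 2 fell among the WT values, and the other CKO libraries lay above them. The means were 163 ± 7.32 and 187 ± 18.8 FPKM (SD, n = 3), with a log2 fold change of 0.19 (95% interval -0.13 to 0.52, adjusted *p* = 0.793, limma). It was 0.08 when scaled without globin genes, 0.10 with quantile normalization and 0.12 without CKO replicate 1. *Srsf2* shares 460 and 288 bases of exon on the opposite strand with *Mettl23* and *Mfsd11*, and the strand setting of the counting is not given in the sources used here.

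*Srsf7* had 165, 190 and 183 FPKM in the WT libraries and 164, 245 and 220 in the CKO libraries. CKO replicate 1 was the lowest of the 6 libraries, while the other CKO libraries were the highest. The means of 179 ± 13.3 and 210 ± 41.6 FPKM (SD, n = 3) differed by a log2 fold change of 0.21 (95% interval -0.22 to 0.63, adjusted *p* = 0.837, limma). Without CKO replicate 1 the value was 0.37, the largest of any member under any setting, with an adjusted *p* of 0.2 in limma, and this was the 1 fit among 180 with an unadjusted *p* under 0.05. Without CKO replicate 2 it was 0.08, and it was 0.07 with quantile normalization and 0.10 when scaled without globin genes. *Srsf3* had 133, 154 and 148 FPKM in WT and 129, 170 and 151 FPKM in CKO. *Srsf3* shared its extremes with *Srsf7*, CKO replicate 1 at the bottom and CKO replicate 2 at the top, but its CKO replicate 3 lay between the WT values. Its log2 fold change was 0.04 (95% interval -0.31 to 0.40, adjusted *p* = 0.964, limma).

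Among the related *Srsf4*, *Srsf5* and *Srsf6*, which carry a pair of RNA recognition motifs, *Srsf4* had 41.9, 36.1 and 34.3 FPKM in WT and 46.1, 29.6 and 38.0 FPKM in CKO. The CKO libraries held both the highest and the lowest value, and the WT libraries sat between them. The log2 fold change was -0.0011 (95% interval -0.42 to 0.41, adjusted *p* = 0.999, limma). An antisense transcript, *Gm12992*, overlaps 43% of the exon length of *Srsf4*, so its reads could enter this value if strand was not used. *Srsf6* had 104, 109 and 115 FPKM in WT and 121, 97.0 and 120 in CKO, again with CKO replicate 2 lowest, and a log2 fold change of 0.03 (adjusted *p* = 0.968, limma). *Srsf5* ranged from 101 to 110 FPKM in WT and from 98.1 to 116 FPKM in CKO, with a log2 fold change of 0.03 (adjusted *p* = 0.972, limma).

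*Srsf9* was the member with the lowest fold change. It had 44.8, 55.2 and 50.4 FPKM in the WT libraries and 48.5, 39.6 and 52.0 FPKM in the CKO libraries. Only CKO replicate 2 lay below the WT values, and the log2 fold change was -0.11 (95% interval -0.45 to 0.24, adjusted *p* = 0.893, limma). Without that library it was 0.0071. *Srsf10* ranged from 56.2 to 62.3 FPKM in WT and 58.8 to 66.0 in CKO, and *Srsf11*, which works with the factor that binds the polypyrimidine tract, from 33.2 to 38.2 FPKM in WT and 32.4 to 40.8 in CKO. Their groups overlapped, with log2 fold changes of 0.02 and 0.0095. *Srsf12*, a tissue-restricted relative of *Srsf10* that is not a member, was low, with 2.12 to 3.33 FPKM and a log2 fold change of -0.03 (adjusted *p* = 0.978, limma).

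The order of the libraries was not the same for all members. CKO replicate 1 was the highest library for 6 members and the lowest for 2, *Srsf3* and *Srsf7*. CKO replicate 2 was the lowest for 5 members (*Srsf4*, *Srsf5*, *Srsf6*, *Srsf9* and *Srsf11*) and the highest for *Srsf3* and *Srsf7*. The ratio of *Srsf7* to *Srsf4* FPKM was 3.92, 5.27 and 5.35 in the WT libraries and 3.56, 8.29 and 5.78 in the CKO libraries. Both groups thus had their lowest ratio in replicate 1, and CKO replicate 2 stood above the rest. *Srsf3* and *Srsf7* together held 29.6%, 33.5% and 32.0% of the summed SR FPKM in WT and 26.8%, 38.3% and 32.7% in CKO. The globin genes took 13.7%, 19.5% and 20.6% of all FPKM in the WT libraries and 11.7%, 32.4% and 23.5% in the CKO libraries, which puts replicate 1 lowest in both groups and CKO replicate 2 highest. The part of blood content in the SR pattern was not tested.

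**Figure D3:**
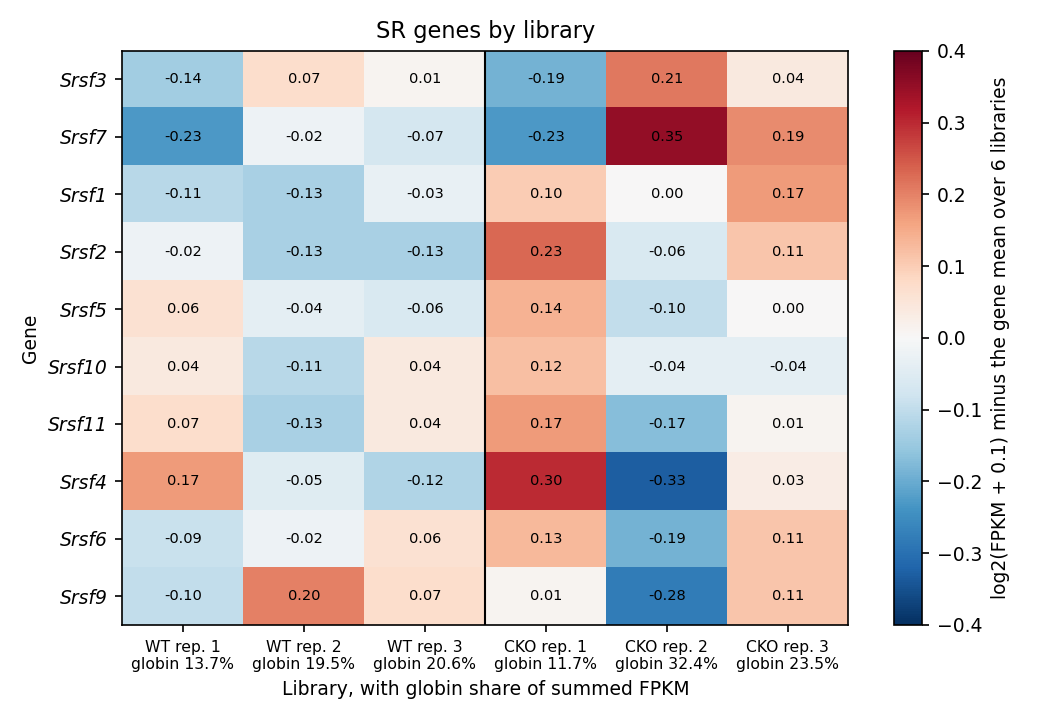
Log2(FPKM + 0.1) of each SR gene minus its own mean over 6 libraries, in columns for the 3 WT and 3 CKO libraries with the globin share of all FPKM below each. *Srsf3* and *Srsf7* run from -0.19 and -0.23 in CKO replicate 1 to 0.21 and 0.35 in CKO replicate 2, and *Srsf4* runs the other way, from 0.30 to -0.33.

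Likeness between profiles was measured as the root mean square difference of these deviations over the 6 libraries. *Srsf5* and *Srsf10* were the closest pair (0.0599), *Srsf7* was nearest to *Srsf3* (0.104), and *Srsf4* and *Srsf7* were farthest apart (0.396). The spread within groups was smallest for *Srsf1*, with a residual SD of 0.07 on the log2 scale that 4.53% of the tested genes undercut. It was 0.23 for *Srsf7* and 0.25 for *Srsf4*, where 55.5% and 62.2% of genes had a lower SD. The mean SR profile was nearly flat, from -0.06 in CKO replicate 2 to 0.08 in CKO replicate 1. Outside the members and the listed partner genes described below, the genes closest to it were *Szrd1* (0.0177), *Gtpbp1* (0.0262), *Dcbld1* (0.0269), *Arpc4* (0.0294) and *Mapre2* (0.0296). Their log2 fold changes were 0.04 to 0.08.

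The SR pool as a whole was summed over the 10 genes. It came to 1005, 1028 and 1034 FPKM in WT replicates 1, 2 and 3 and to 1092, 1084 and 1134 FPKM in the CKO replicates. The CKO sums all lay above the WT sums, with means of 1103 ± 26.5 and 1022 ± 15.4 FPKM (SD, n = 3). *Srsf1*, *Srsf2* and *Srsf7* held 46.9%, 46.9% and 47% of the sum in WT and 48.1%, 51.5% and 50.5% in CKO. The other members had log2 fold changes from -0.11 (*Srsf9*) to 0.04 (*Srsf3*), so the higher sum came mostly from these genes. As a share of the FPKM of all genes except globins, the pool was 0.425%, 0.394% and 0.421% in WT and 0.473%, 0.365% and 0.410% in CKO, and the groups overlapped. The higher sum in CKO held on the deposited scale and not on this one. Scaled without globin genes, 3 of 10 members were above 0 against 31.2% of all tested genes, and with quantile normalization 3 of 10 against 50.7%. Between libraries of the same number, the median member differed by 0.10, 0.02 and 0.06 on the log2 scale, with 8, 5 and 8 of 10 members higher in CKO. The median over all tested genes was -0.01, 0.00 and 0.00. The data do not tell numbers 2 and 3 apart, so these libraries are not established pairs.

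Genes that act on or with SR proteins were taken from a list of 47, of which 44 were tested and *Srpk3*, *Srrm3* and *Srrm4* fell under the filter. Limma called 0 of the 44 at the adjusted threshold and 2 at the unadjusted one (4.55%, against 8.31% of all tested genes), and voom also called 0 and 2. The list had 23 genes above and 21 below 0 with a median log2 fold change of 0.02. The groups did not overlap for 3 genes, *Tra2b* and *Clk4* (higher in CKO) and *Tnpo3* (lower), or 6.82% against 14.5% of all tested genes. Over all tested genes, 8.86% were lower in CKO without overlap.

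*Tnpo3*, the import receptor that carries phosphorylated SR proteins into the nucleus, stood lowest of the list. It had 16.1, 14.4 and 13.8 FPKM in WT and 10.3, 10.9 and 9.93 FPKM in CKO. Every CKO library lay below every WT library, also under the other scalings of the libraries. The means were 14.8 ± 1.18 and 10.4 ± 0.514 FPKM (SD, n = 3), with a log2 fold change of -0.50 (SE 0.11, adjusted *p* = 0.264, limma). With the replicate number as a block the change passed the threshold (adjusted *p* = 0.0272, limma), in a fit that called 2.81% of all tested genes, and likewise in voom with the block (adjusted *p* = 0.0103), which called 5.11%. *Tnpo1*, a related receptor with other cargo, had a log2 fold change of 0.21 (adjusted *p* = 0.792, limma), and *Nxf1*, the mRNA export receptor that *Srsf3* and *Srsf7* bind, had 43.5 ± 0.701 and 43.3 ± 1.35 FPKM in WT and CKO (SD, n = 3).

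Of the 7 tested kinases that phosphorylate SR proteins or act in splicing, 0 passed the test in limma at either threshold, 3 were above and 4 below 0, and the values ran from -0.16 to 0.18. *Clk4*, a nuclear kinase of SR proteins, had 13.1, 13.8 and 14.8 FPKM in WT and 17.4, 15.2 and 14.9 FPKM in CKO. Its groups were barely apart, with a log2 fold change of 0.18 (adjusted *p* = 0.751, limma), and overlapped when scaled without globin genes or with quantile normalization. *Srpk1*, the cytoplasmic kinase that prepares SR proteins for import, had 15.2 ± 2.05 and 14.2 ± 1.27 FPKM (SD, n = 3).

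The 10 tested genes of nonsense-mediated decay, the route that clears the poison-exon forms of SR transcripts, had 6 values above and 4 below 0. *Smg8*, a regulator of the kinase *Smg1*, was the highest with 13.0, 9.23 and 9.46 FPKM in WT and 14.5, 12.8 and 14.4 in CKO. WT replicate 1 reached into the CKO range, and the log2 fold change was 0.41 (SE 0.16, adjusted *p* = 0.553, limma). In replicates 2 and 3 alone, where 15.1% of all tested genes were called, its adjusted *p* was 0.0034 in limma. *Upf1*, the helicase at the centre of decay, had 34.6 ± 3.04 and 35.7 ± 7.36 FPKM (SD, n = 3).

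The other 24 tested genes encode SR-related splicing proteins, with 13 above and 11 below 0 and values from -0.35 to 0.30. *Tra2b*, a partner of SR proteins in exon inclusion with poison exon control of its own, had 80.1, 78.1 and 78.2 FPKM in WT and 83.1, 103 and 90.2 in CKO. All CKO libraries were above WT, with a log2 fold change of 0.22 (adjusted *p* = 0.719, limma), but the groups overlapped when scaled without globin genes (76.9 to 87.0 in WT and 83.8 to 92.4 in CKO) or with quantile normalization. *Rsrp1*, a little-studied arginine-serine rich protein, had 37.0, 44.8 and 48.4 FPKM in WT and 39.8, 27.8 and 35.1 in CKO, and *Luc7l3*, a U1-associated factor, 24.0, 29.5 and 30.8 in WT and 28.6, 38.6 and 37.2 in CKO. The groups of both overlapped through replicate 1, with log2 fold changes of -0.35 and 0.30 (adjusted *p* = 0.654 and 0.688, limma). The value of *Rsrp1* was -0.20 without CKO replicate 2 and -0.57 in replicates 2 and 3 alone (adjusted *p* = 0.00312, limma). That last fit called 15.1% of all tested genes. *Srrm2*, the large scaffold of nuclear speckles, had 119, 67.7 and 84.9 FPKM in WT and 135, 68.5 and 77.0 in CKO. Replicate 1 was highest in both groups, and the log2 fold change of 0.02 had a 95% interval of -0.67 to 0.71, or -0.24 to 0.28 with the block.

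**Figure D4:**
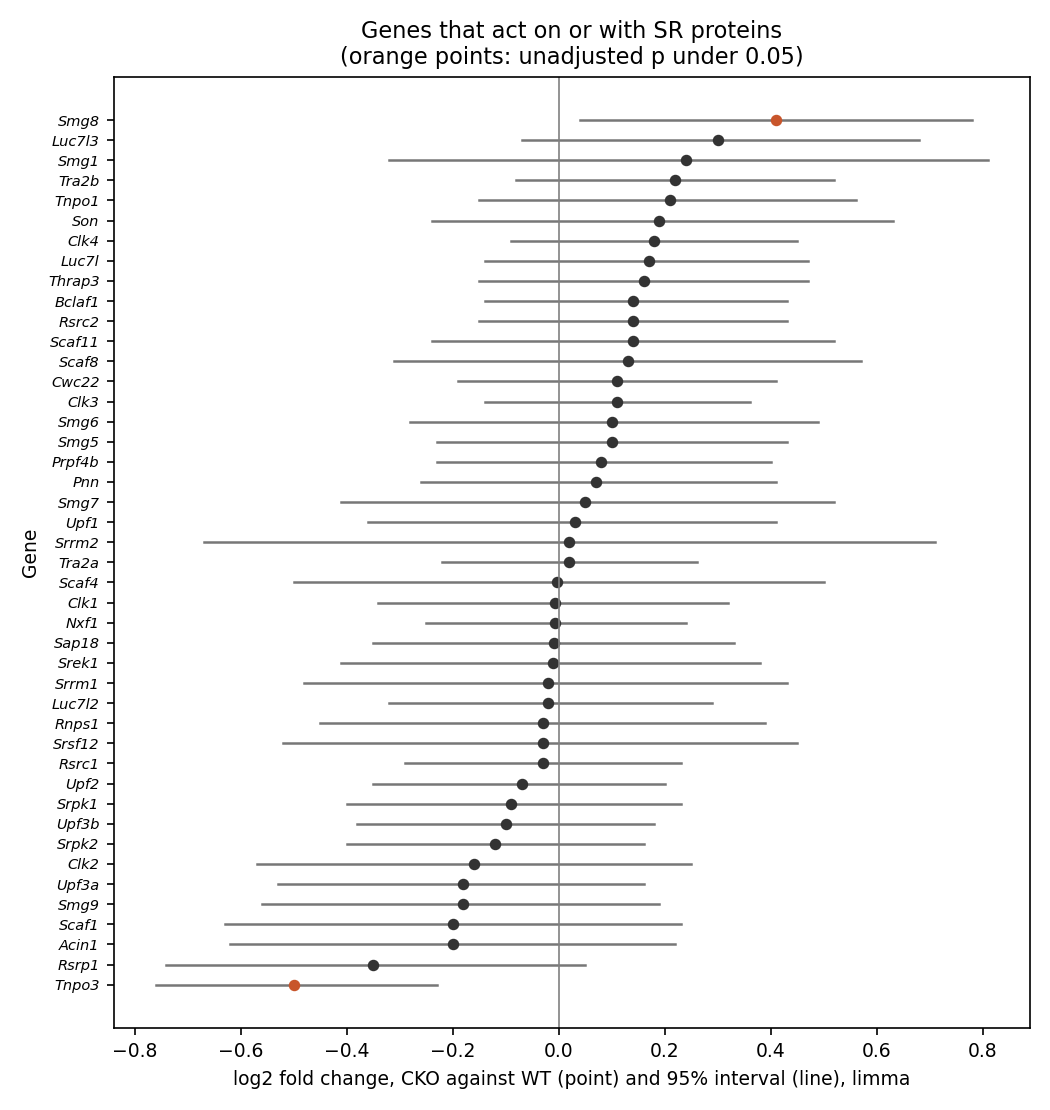
Log2 fold change of CKO against WT (points) with 95% intervals (lines) from limma for the 44 tested genes that act on or with SR proteins, in order of their value, orange where the unadjusted *p* was under 0.05. *Tnpo3* at -0.50 and *Smg8* at 0.41 mark the ends, and their intervals are the ones that leave out 0.

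Marker genes placed the libraries as limb bud tissue with a variable share of blood RNA. The summed FPKM of 8 limb mesenchyme markers was 362 to 406 in WT and 308 to 347 in CKO, with 1 of 8 above 0 and a median log2 fold change of -0.18. Erythroid markers summed to 37821 to 64030 FPKM in WT and 30857 to 142991 in CKO, with 10 of 10 above 0. Proliferation genes summed to 618 to 646 FPKM in WT and to 592, 871 and 739 FPKM in CKO replicates 1, 2 and 3. Of these genes, 8 of 8 were above 0, with a median log2 fold change of 0.19. The paper, by other measures, reported suppressed proliferation in CKO from Ki67 staining and cultured cells. Muscle precursor markers were 16.2 to 19.3 FPKM in WT and 23.1 to 24.1 FPKM in CKO, with 5 of 5 tested above 0. The summed markers of ectoderm, endothelium, macrophages and Schwann cell precursors overlapped between groups. Above 0 were 6 of 7 ectoderm, 0 of 6 endothelial, 5 of 6 macrophage and 3 of 3 tested Schwann cell precursor markers. All these marker counts are on the deposited scale, where 50.9% of all tested genes were above 0. Scaled without globin genes, 31.2% of all tested genes were. No marker gene of any list passed the adjusted threshold in limma, and none was at 0 in all libraries. These marker differences can reflect cell numbers or RNA per cell, which cannot be told apart here. Their part in the SR values was not tested. Reads on listed genes numbered 17140869 to 24624434 per library. Between 1254 and about 29053 recovered reads stood behind each value of an SR gene, so counting error was small beside the spread between libraries.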

How the data were processed

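Gene expression was read from 1 table of FPKM deposited by the authors, with 3 WT and 3 CKO columns. Per the labels, stranded mRNA libraries were made, and cutadapt 2.5, HISAT2 2.1.0 and featureCounts 1.6.3 are among the tools of the series on mm10. The annotation and strand setting are not given in the sources used here. FPKM multiplied by GENCODE vM21 exon length gave whole reads in all libraries for 92.6% of 21933 genes (tolerance 0.1). *Srsf3* and *Srsf7* were not among them, so their recovered reads are rounded values. Reads on listed genes were 0.947 to 0.968 times the authors' divisor, but 1.11 and 1.03 times in CKO replicates 2 and 3, so the FPKM carry a scaling between libraries.

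Genes averaging under 0.5 FPKM were left out. Log2(FPKM + 0.1) values were compared with limma 3.58.1 (R 4.3.3, eBayes with trend), and *p* values were adjusted over 12305 genes by Benjamini-Hochberg. Fold changes are on this scale and understate low genes. In simulated data for this comparison, 172 of 200 changed genes among 12305 were recovered, 75% at a log2 change of 1 and 97% at 2, with 8 false calls. Smaller changes were not simulated. The simulated noise was independent between libraries, and the 200 changes were all large, while the real fit called 8 genes. These shares are therefore not the power of the real comparison. Alternatives were pseudocount, filter, scaling, trend, replicate block, voom on recovered reads and leaving out libraries. Same-numbered libraries deviated together (correlations across genes of 0.636, 0.443 and 0.266, all above 0.1), and the block was used on that ground. WT replicate 2 correlated more with CKO replicate 3 (0.495) and WT replicate 3 more with CKO replicate 2 (0.307), so the numbers set replicate 1 apart and do not separate 2 from 3. The labels name no shared litter or day. Replicates differed beyond counting noise (chi-square over degrees of freedom 10.1 to 150). The members and lists were chosen with earlier results of these data known. Named genes are the members, *Hnrnpk*, the 6 partner genes with the lowest *p*, and 5 genes nearest the mean member profile. Those 5 were sought outside the members and partner genes. Other partner genes were named after their values were seen.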

Additional observations from a re-analysis of the deposited data

How the results depend on the processing

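Of the 10 SR genes, 0 were called at the adjusted threshold by limma or voom under any of 18 alternatives, and *Srsf1*, *Srsf2* and *Srsf7* stayed above 0 in all of them, at 0.09, 0.10 and 0.07 with quantile normalization and 0.08, 0.08 and 0.10 scaled without globin genes. The median log2 fold change of the members was 0.03, but -0.05 with quantile normalization and -0.08 scaled without globin genes, a scaling that moved the median of all genes by -0.10, and 3 of 10 members were then above 0 in place of 8. Leaving out 1 library gave medians of -0.03 to 0.09, the lowest without CKO replicate 1 and the highest without CKO replicate 2. With quantile normalization, the values turned to -0.06 (*Srsf3*), -0.08 (*Srsf5*), -0.07 (*Srsf6*), -0.05 (*Srsf10*) and -0.04 (*Srsf11*), and without globin genes to -0.07, -0.08, -0.07, -0.08 and -0.10 in that order. In replicates 2 and 3 alone, *Srsf5* (-0.00072), *Srsf6* (-0.06), *Srsf10* (-0.0061) and *Srsf11* (-0.03) fell below 0. *Srsf4* was 0.02 with median-ratio scaling, 0.01 with voom and 0.0099 with voom and the block. Leaving out 1 library gave 0.14 to 0.23 for *Srsf1*, 0.12 to 0.27 for *Srsf2*, 0.08 to 0.37 for *Srsf7*, -0.05 to 0.15 for *Srsf3*, -0.15 to 0.17 for *Srsf4*, -0.04 to 0.08 for *Srsf5*, -0.02 to 0.14 for *Srsf6*, -0.19 to 0.0071 for *Srsf9*, -0.03 to 0.05 for *Srsf10* and -0.07 to 0.09 for *Srsf11*. None of these values passed the adjusted threshold, and the cause of the turns was not tested.

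With the replicate block, whose numbers 2 and 3 the data do not tell apart, the partner genes called rose from 0 to 1 (*Tnpo3*), and with voom and the block to 2 (*Tnpo3* and *Smg8*). The genes called over all rose from 8 to 346 in limma and from 10 to 628 in voom. As shares with the block, this was 2.27% of the partner genes against 2.81% of all tested genes in limma, and 4.55% against 5.11% in voom. In voom the block also brought *Hnrnpk* past the threshold (adjusted *p* = 0.0237), and it changed no other call among the members and partners. In replicates 2 and 3 alone, 3 partner genes were called (*Tnpo3*, *Smg8* and *Rsrp1*) and 1863 genes in all. This was 6.82% of the partner genes, below the 15.1% of all tested genes. *Tnpo3* was called in 3 of 18 alternatives, its adjusted *p* ran from 0.0103 to 0.985, and its log2 fold change stayed between -0.61 and -0.43. Dividing by the exon length of coding transcripts alone, an alternative chosen after seeing the data, moved *Srsf3* from rank 3 to 1, *Srsf5* from 6 to 4 and *Srsf11* from 10 to 7.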
